A study of Mus musculus with 8 samples.

Results

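The 34 genes described here code for the enzymes that build cholesterol and fatty acids, together with the proteins that switch these pathways on and a few that move or remove sterols. They were named from known pathway membership, with no measured value in the rule but with earlier results of these data known, and were found by their Ensembl identifiers among the 40659 genes of the count table. All 34 passed the filter on low counts that left 17252 genes for testing. The lowest count of any of them in any library was 63, for Idi1, so no gene passed through one group alone. The list holds 7 genes of the mevalonate pathway (Acat2, Hmgcs1, Mvk, Pmvk, Mvd, Idi1, Fdps), 3 of squalene and lanosterol synthesis (Fdft1, Sqle, Lss), 8 of the steps from lanosterol to cholesterol (Cyp51, Tm7sf2, Msmo1, Nsdhl, Hsd17b7, Ebp, Sc5d, Dhcr7), 5 of SREBP control (Srebf1, Srebf2, Scap, Insig1, Insig2), 3 of sterol transport and turnover (Stard4, Abca1, Cyp46a1), 4 of fatty acid synthesis (Acly, Acaca, Fasn, Elovl6) and 4 desaturases (Scd1, Scd2, Fads1, Fads2).

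The libraries were made from polyadenylated RNA of whole hippocampus of male C57BL/6JRj mice. A recombinant adeno-associated virus (rAAV) was injected into the dorsal and ventral hippocampus at postnatal week 7/8, and the labels give week 12/13 as the age of the tissue. The methods of the study place the dissection 4 weeks after surgery. In the hp708 group (n = 4) the virus carried a hairpin that gives rise to miR-708-5p, and in the hpCTL group (n = 4) a control hairpin. Both hairpins lie in the untranslated end of EGFP behind the human synapsin promoter, which is active in neurons, so both groups had the surgery, the virus and EGFP, and every other cell type of the tissue was sequenced along with the neurons. The comparison of the groups asks whether raised miR-708-5p in hippocampal neurons goes with a different level of any of these transcripts.

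Cholesterol does not pass the blood-brain barrier in useful amounts, so the brain makes its own, chiefly in astrocytes and in the oligodendrocytes that form myelin. Acetyl-CoA is turned into mevalonate, then into farnesyl pyrophosphate, squalene, lanosterol and, by a chain of oxidations and reductions, cholesterol. The transcription factors SREBP-1 and SREBP-2 are held in the endoplasmic reticulum by Scap and the Insig proteins while sterols are plentiful, and are cut free and switch on the whole set of enzymes when sterols run low. Fatty acid synthase and the desaturases are driven by the same family, mainly by SREBP-1, and neurons dispose of cholesterol through Cyp46a1, which turns it into 24S-hydroxycholesterol.

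Each library held 22606824 to 28462428 counts, and no pair of libraries within a group agreed within sampling noise (chi-square per degree of freedom of 10 to 46.2), so none was a copy of another in its group. The labels name separate animals. The gene of the microRNA itself, Mir708, had 0 counts in all 8 libraries, as a library of polyadenylated RNA does not capture mature microRNAs, and the overexpression was therefore not checked here. In the source data of another panel of the study, the animal of hp708 replicate 1 appears as a control; the library was kept in the group of its GEO label, and results are also given without it. The tissue carried its own markers: 5 CA1 pyramidal neuron genes averaged 6.17 to 6.39 on the log2 CPM scale (CPM, counts per 1000000 of the TMM-scaled library) and 5 dentate granule cell genes 4.44 to 5.61. Choroid plexus markers differed most between animals, from 1.34 to 5.34 in hpCTL and from 2.10 to 6.23 in hp708. All 7 interferon response markers had a negative log2 fold change with an unadjusted p under 0.05 in the fit described further on, and none had an adjusted p under 0.05. The same held for 4 of 6 microglia, 3 of 5 subiculum and 1 of 6 neuron markers, where 4.87% of all genes were lower at that p, and for no marker of the other 7 lists in either direction. These calls come from that fit alone, and the unadjusted list means overlapped between the groups. Interferon response ran from 3.30 to 4.62 in hpCTL and from 3.17 to 4.60 in hp708, and microglia from 5.89 to 6.25 and 5.68 to 6.30. Subiculum ran from 3.51 to 4.27 and 2.64 to 4.14, and neuron from 9.50 to 9.61 and 9.39 to 9.62. No gene of the 11 marker lists was at 0 in every library. As these are bulk samples, fewer cells of a type and less RNA per cell cannot be told apart.

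A microRNA recognises a transcript through bases 2 to 8 of its mature strand, the seed, which pair with a site in the 3′ untranslated region, and binding there usually lowers the transcript. The mature sequence, taken from RefSeq (GRCm38.p6), is printed with the seed in capitals because the sites that follow are read against it.
mmu-miR-708-5p: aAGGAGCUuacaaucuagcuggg
Of 3 classes of site searched, the 8mer matches the 7 seed bases and has an A after them, the 7mer-m8 matches the 7 seed bases, and the 7mer-A1 matches bases 2 to 7 and has the A. A site of any of the 3 classes lay in the longest annotated 3′ untranslated region (GENCODE M39 on GRCm39) of 10 of the 34 genes (29.4%), and of 26.5% of all 14808 tested genes with such a region. An 8mer was found in Mvk and Nsdhl, and a 7mer-m8 site also in Lss, Cyp51, Srebf2 and Fads1. The other 4 (Sqle, Hsd17b7, Stard4 and Cyp46a1) held the 7mer-A1 class alone. A site in the longest region need not be in the other transcripts of a gene. The Sqle site lay in 1 of 11 coding transcripts and not in the canonical one, and the Srebf2 site in 2 of 7. The longest site of each of the first 6 genes is shown with its position in GRCm39, the strand and, in capitals, the bases of the site.
Nsdhl, chrX:72001802-72001824, plus strand: ctgtgttagctggtcAGCTCCTA
Mvk, chr5:114598409-114598431, plus strand: aggccttcgccctggAGCTCCTA
Lss, chr10:76389151-76389173, plus strand: gtggatggactcggaAGCTCCTg
Cyp51, chr5:4131863-4131885, minus strand: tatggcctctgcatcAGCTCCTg
Srebf2, chr15:82088302-82088324, plus strand: taggaccatgggcagAGCTCCTt
Fads1, chr19:10173251-10173273, plus strand: ctgctgcagcgaggcAGCTCCTc
Laid antiparallel to the 23 bases of miR-708-5p without gaps, the Nsdhl site could pair at 15 positions and the other 5 at 9 to 11. A match is a description of letters and was not tested for binding.

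SREBPs bind a short element in the promoters of their targets. The window of Hmgcs1, the enzyme that joins acetyl-CoA to acetoacetyl-CoA at the entry of the mevalonate pathway, is shown because Hmgcs1 was the only one of the 27 genes with a promoter window, some of which have more than 1 window, that held the sterol regulatory element searched for (TCACNCCAC, on either strand). RefSeq gives it with 250 bases before and 50 after the transcript start. It matched GRCm39 once on its chromosome, at chr13:120151637-120151936 on the plus strand, and the element stands in capitals, beginning 137 bases before the start.
Hmgcs1 promoter: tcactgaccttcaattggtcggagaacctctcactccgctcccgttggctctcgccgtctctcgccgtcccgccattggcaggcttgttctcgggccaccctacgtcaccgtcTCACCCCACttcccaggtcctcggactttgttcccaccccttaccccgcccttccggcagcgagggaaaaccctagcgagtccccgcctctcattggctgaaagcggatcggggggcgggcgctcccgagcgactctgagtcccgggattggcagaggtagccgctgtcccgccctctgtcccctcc
Among all 12223 tested genes with a window, 1.34% held that element in at least 1 of their windows. Counted in the same way by gene, the CCAAT box, bound by NF-Y, was found in 21 of the 27 genes (77.8%) and in 42.2% of all genes with a window, and Hmgcs1 had 4 copies, counting both strands. The GC box GGGCGG, bound by Sp1, was in 23 of the 27 genes (85.2%) against 65.5%, and the E-box CACGTG in 6 of 27 (22.2%) against 11%. Each motif was counted on its own on both strands, so a base may belong to more than one, and a missing match says only that these letters are not in the window.

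Levels of different genes were compared per length, as RPKM, which is CPM divided by the kilobases of merged exon length, over all 8 libraries. Scd2, the stearoyl-CoA desaturase that puts the first double bond into saturated fatty acids in brain, stood first with 184 ± 8.16 RPKM (SD, n = 8) and lay at the 99.4th percentile of all genes tested. Cyp46a1 followed at 38 ± 4.41 RPKM, Fads1 at 34.5 ± 1.96, Hmgcs1 at 31.4 ± 3.34 and Fads2 at 27.8 ± 3.07. The ranges of neighbours in this order overlapped in all but 3 places: between Scd2 and Cyp46a1, between Scd1 (17.6 ± 1.61 RPKM) and Srebf1 (12.3 ± 1.24 RPKM), and between Acaca (2.45 ± 0.192 RPKM) and Idi1 (1.33 ± 0.329 RPKM). Mvk was last with 1.25 ± 0.131 RPKM, at the 28.3rd percentile. The order depends on the length used: over the canonical transcript alone, Scd2 and Cyp46a1 kept the first 2 places, Acly moved from place 12 to 7, Fdps from 19 to 8 and Srebf1 from 9 to 17.

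**Figure D1:**
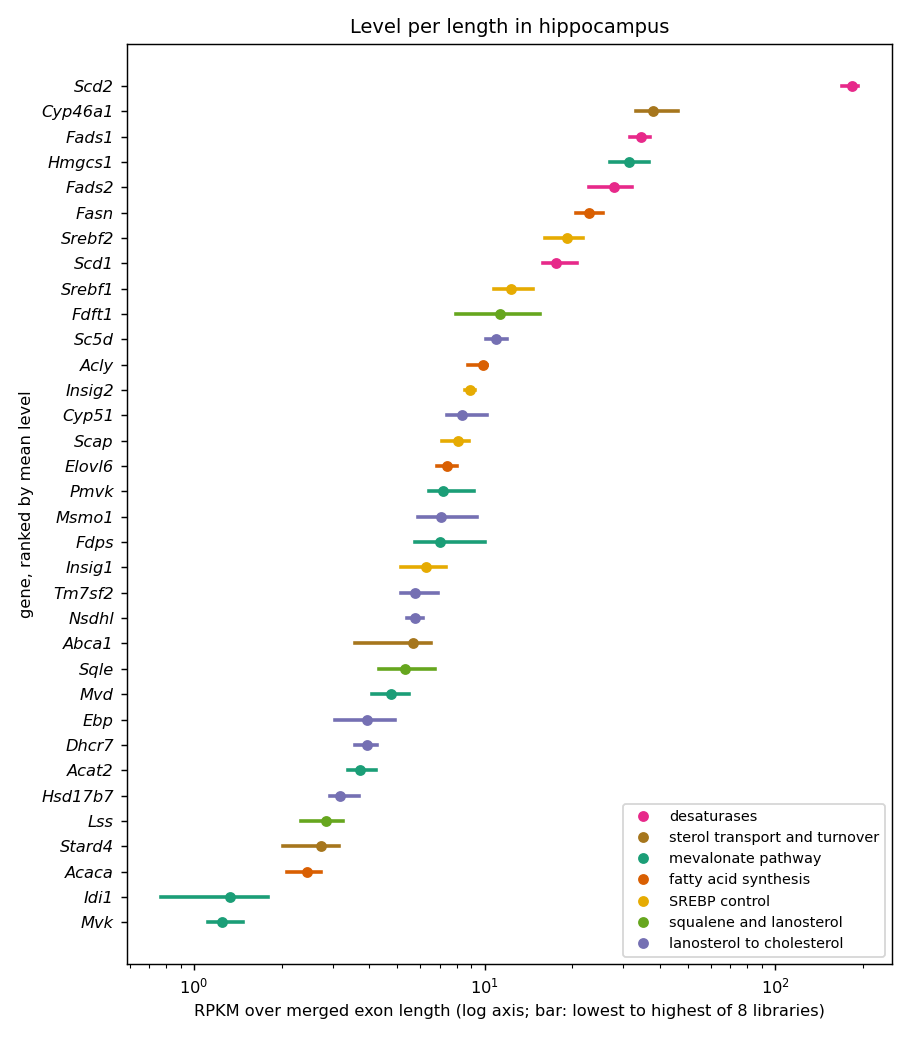
Level per length of the 34 genes, in RPKM on a log axis, ranked by the mean over 8 libraries (points) with the lowest to highest library as bars and the colour giving the pathway step. Scd2 (184 RPKM) stands apart at the top, and Idi1 and Mvk (1.33 and 1.25 RPKM) at the bottom.

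In the comparison of hp708 with hpCTL, none of the 34 genes had an adjusted p under 0.05 when edgeR's quasi-likelihood test was run with 3 surrogate variables (estimated covariates that take up variation between libraries that the groups do not explain). The lowest adjusted p among them was 0.593, and 1 gene of all 17252 (0.00580%) passed. At an unadjusted p under 0.05, 2 genes were higher in hp708 (Fasn and Scd2, where 2.82% of all genes were called higher) and 1 was lower (Ebp, where 4.87% of all genes were called lower). Without surrogate variables the same test called none of the 34 at an adjusted p under 0.05 (0% of all genes) and none at an unadjusted p under 0.05 (0.858% of all genes higher, 0.951% lower). The likelihood ratio test called 1 of the 34 genes higher at an unadjusted p under 0.05 (2.05% of all genes) and none lower (3.96%), and DESeq2 called 3 higher (1.86%) and none lower (3.16%). Neither called any of the 34 at an adjusted p under 0.05, where the likelihood ratio test called 0.736% of all genes and DESeq2 0.556%.

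The 34 log2 fold changes (hp708 minus hpCTL) ran from -0.28 to 0.15 with a median of 0.034, and 12 were negative. Over all genes the median was -0.0091 and 53.2% were negative. Without surrogate variables the median of the 34 was 0.019 with 15 negative. These intervals bound how large a difference could have been missed. With surrogate variables, the 95% confidence interval of 32 genes lay within ±0.5 on the log2 scale, a 1.41-fold difference either way, and that of 21 genes within ±0.25, a 1.19-fold difference. Idi1 and Ebp reached further, and the widest end was that of Idi1 at -0.69. Without surrogate variables 30 intervals lay within ±0.5 and 10 within ±0.25. The median coefficient of variation of the 34 genes between libraries was 8.09% in hpCTL and 8.83% in hp708, where the median over all genes was 12% and 12.6%. Those include genes of any level, and genes of matched level were not compared.

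**Figure D2:**
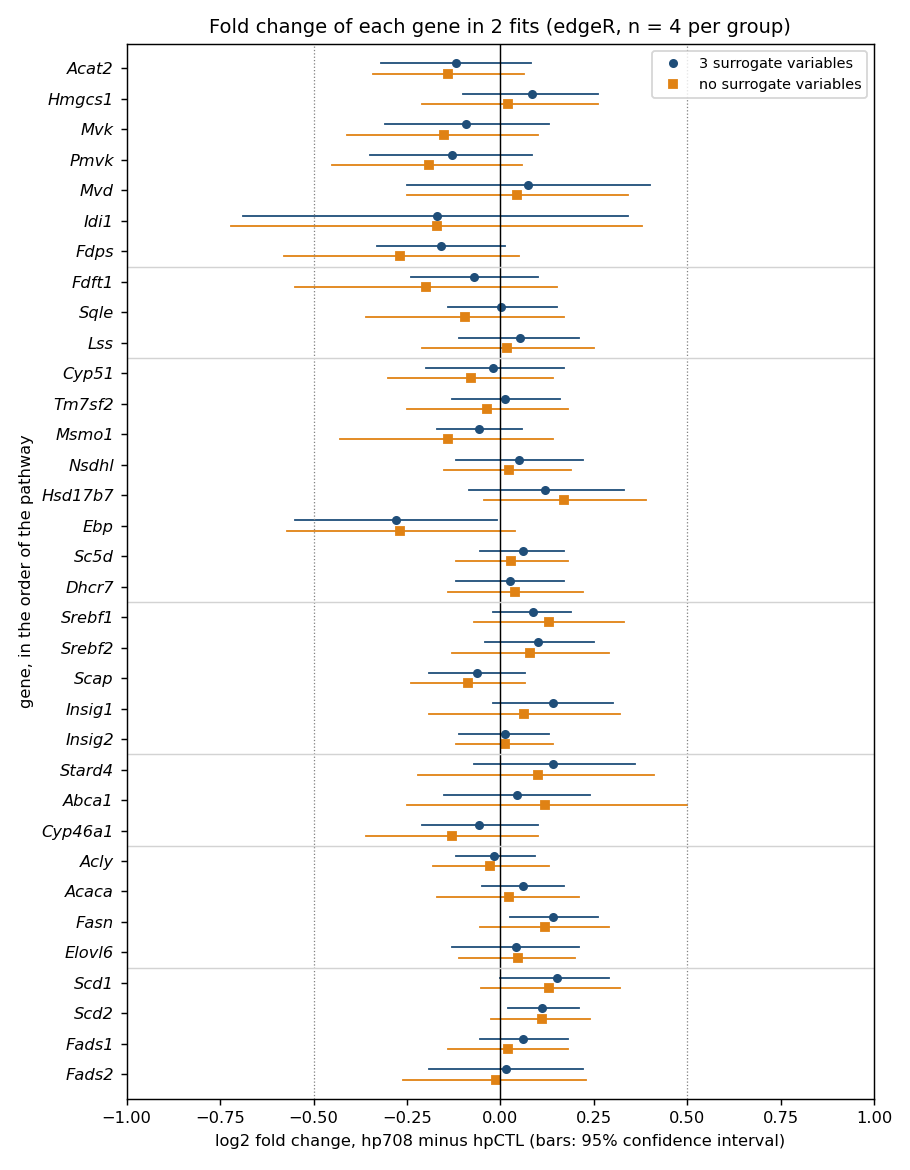
Log2 fold change (hp708 minus hpCTL) of each of the 34 genes with its 95% confidence interval, from edgeR with 3 surrogate variables (blue circles) and without (orange squares), 4 libraries per group. With surrogate variables the intervals of Fasn, Scd2 and Ebp leave 0, and without them all 34 include 0; dotted lines mark ±0.5.

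Leaving out hp708 replicate 1 moved the counts. With 3 surrogate variables the remaining 7 libraries gave 2 genes higher at an unadjusted p under 0.05 (Hsd17b7 and Scd2; 5.44% of all genes) and 5 lower (Fdps, Fdft1, Scap, Cyp46a1 and Fads2; 6.72% of all genes), and none of the 34 had an adjusted p under 0.05 where 56 of 17425 genes (0.321%) did. The lowest adjusted p of the 34 was then 0.219, for Fdft1. The median log2 fold change was -0.01 with 17 of 34 negative. Without that library and without surrogate variables, none of the 34 had an unadjusted p under 0.05 (1.37% of all genes higher, 2.05% lower), the median was -0.018 and 20 were negative. Other libraries also moved the counts at an unadjusted p under 0.05, and the share of all genes called moved as well. The number of the 34 higher was 1 without hpCTL replicate 2 (2.88% of all genes), 0 without hpCTL replicate 3 (0.900%), 0 without hpCTL replicate 4 (2.26%), 4 without hp708 replicate 2 (5.37%) and 4 without hp708 replicate 3 (3.49%). The number lower was 0 without hpCTL replicate 1 (6.13%), hpCTL replicate 3 (2.08%) or hp708 replicate 4 (5.71%). When 1 library was left out of the fit with no surrogate variables, hpCTL replicate 4 was the one whose absence gave most genes lower, namely 3 of the 34 (Acat2, Pmvk and Fdps; 0.746% of all genes). Leaving out hp708 replicate 2 from that fit gave 3 higher (Srebf2, Stard4 and Fasn; 1.86%) and 1 lower (Ebp; 1.35%), leaving out hp708 replicate 3 gave 2 higher (Hsd17b7 and Scd1; 1.34%), and leaving out hpCTL replicate 1 gave 1 higher (Scd2; 0.937%). Over the fits with no surrogate variables and 1 library left out, the lowest adjusted p of any of the 34 genes was 0.926.

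The mevalonate pathway makes the isoprene units from which sterols are built. With surrogate variables, none of its 7 genes had an unadjusted p under 0.05 over all 8 libraries, 5 had a negative log2 fold change and the median was -0.12. In the fit with neither surrogate variables nor hpCTL replicate 4, the unadjusted p was 0.0188 for Fdps, 0.0368 for Pmvk and 0.0432 for Acat2, each lower in hp708 with an adjusted p of 1. Hmgcs1 measured 194, 163, 157 and 142 CPM in hpCTL replicates 1 to 4 and 177, 146, 163 and 179 CPM in hp708 replicates 1 to 4. The groups overlapped, with the highest and the lowest value both in hpCTL, and the log2 fold change was the highest of the pathway at 0.084 (SE 0.077, adjusted p = 0.84). Idi1, which isomerises the isoprene unit, was the lowest at -0.17 (SE 0.22, adjusted p = 0.89). It measured 5.25, 6.12, 4.43 and 4.21 CPM in hpCTL and 4.2, 2.74, 4.52 and 6.36 CPM in hp708, so that hp708 held both the lowest and the highest library. Its highest count in any library was 154, the fewest of the 34 genes, and its spread in hp708 (33.4% of the mean) was the widest.

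The other 5 genes of this pathway lay between these values. Fdps, which makes farnesyl pyrophosphate, had means of 37.5 ± 8.21 CPM in hpCTL and 31.2 ± 2.38 CPM in hp708 (SD), a log2 fold change of -0.16 (adjusted p = 0.678), with hpCTL replicate 1 alone at 48.9 CPM. The value was -0.27 with no surrogate variables (adjusted p = 0.999) and -0.21 with hp708 replicate 1 left out (unadjusted p = 0.0328, adjusted p = 0.35), and leaving out 1 library gave -0.37 to -0.11. Acat2, the thiolase of the first step, had means of 22.9 ± 2.3 and 20.8 ± 0.196 CPM. Its 4 hp708 libraries lay within 20.6 to 21 CPM, inside the hpCTL range of 19.8 to 24.8 CPM. Mvk, the mevalonate kinase, and Pmvk, the phosphomevalonate kinase, had log2 fold changes of -0.092 and -0.13, and Mvd, the decarboxylase, 0.075.

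Squalene and lanosterol synthesis commits the pathway to sterols. Of its 3 genes none had an unadjusted p under 0.05 and the median log2 fold change was 0.002; it was -0.095 with no surrogate variables, and -0.09 with all 3 genes negative when hp708 replicate 1 was left out. Fdft1, squalene synthase, measured 73.9, 53.7, 55.8 and 47.5 CPM in hpCTL and 58.5, 38.1, 53.8 and 50.8 CPM in hp708. The groups overlapped, hpCTL replicate 1 was the highest library and hp708 replicate 2 the lowest, and the log2 fold change was -0.07 (SE 0.072, adjusted p = 0.865). Without surrogate variables it was -0.20 (adjusted p = 0.999), with hp708 replicate 1 left out -0.20 (unadjusted p = 0.00994, adjusted p = 0.219), and over the 16 fits that left out 1 library it ran from -0.28 to -0.0046. Ctsb shares 24.8% of the merged exon length of Fdft1 on the opposite strand; as the counting is not stated to use strand, reads of the 2 genes cannot be told apart there. Lss, which closes the sterol rings, measured 30.1, 34.7, 32.5 and 31.6 CPM in hpCTL and 36.9, 26.4, 33 and 34.2 CPM in hp708. The hp708 libraries spanned the whole hpCTL range, with a log2 fold change of 0.051 (SE 0.069, adjusted p = 0.899) that turned to -0.09 with hp708 replicate 1 left out. Sqle, the epoxidase between them, had means of 48.9 ± 7.49 and 45.8 ± 5.44 CPM and a log2 fold change of 0.002.

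Between lanosterol and cholesterol, 1 of 8 genes had an unadjusted p under 0.05, the median log2 fold change was 0.019 and 3 of 8 were negative, which became -0.0066 and 4 of 8 with no surrogate variables. That gene was Ebp (ENSMUSG00000031168, chrX:8050773-8059795, minus strand), the sterol isomerase. Ebp measured 20, 15.7, 19 and 15.5 CPM in hpCTL and 13.2, 17.3, 15.6 and 12.5 CPM in hp708. The groups overlapped: hp708 replicate 2 lay above 2 of the hpCTL libraries and hp708 replicate 3 above 1. Its log2 fold change of -0.28 (SE 0.11, 95% confidence interval -0.55 to -0.0081) was the most negative of the 34 genes, with an unadjusted p of 0.045 and an adjusted p of 0.645. Without surrogate variables it was -0.27 (adjusted p = 0.999) and without hp708 replicate 1 it was -0.19 (adjusted p = 0.651).

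Hsd17b7, a ketosteroid reductase of the same stretch, had the highest log2 fold change of the 8 at 0.12 (SE 0.089, adjusted p = 0.791). It measured 15, 15.2, 15.2 and 15.6 CPM in hpCTL and 16.3, 18.5, 15.2 and 18.9 CPM in hp708. The hpCTL libraries were nearly equal, 3 of the hp708 libraries lay above them and the remaining one among them. With hp708 replicate 1 left out the value was 0.23 (unadjusted p = 0.0449, adjusted p = 0.395). The log2 fold changes of the other 6 genes ran from -0.057 for Msmo1, a methyl sterol oxidase, to 0.06 for Sc5d, the lathosterol desaturase. Cyp51, the lanosterol demethylase, had a log2 fold change of -0.019; Akap9 overlaps 21.1% of its exon length on the opposite strand. Tm7sf2, a sterol reductase, was at 0.013; Vps51 on the same strand overlaps 10.8% of its exon length. Nsdhl, which carries the 8mer site, was at 0.05 with a 95% confidence interval of -0.12 to 0.22, and Dhcr7, the reductase of the last step, at 0.026.

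**Figure D3:**
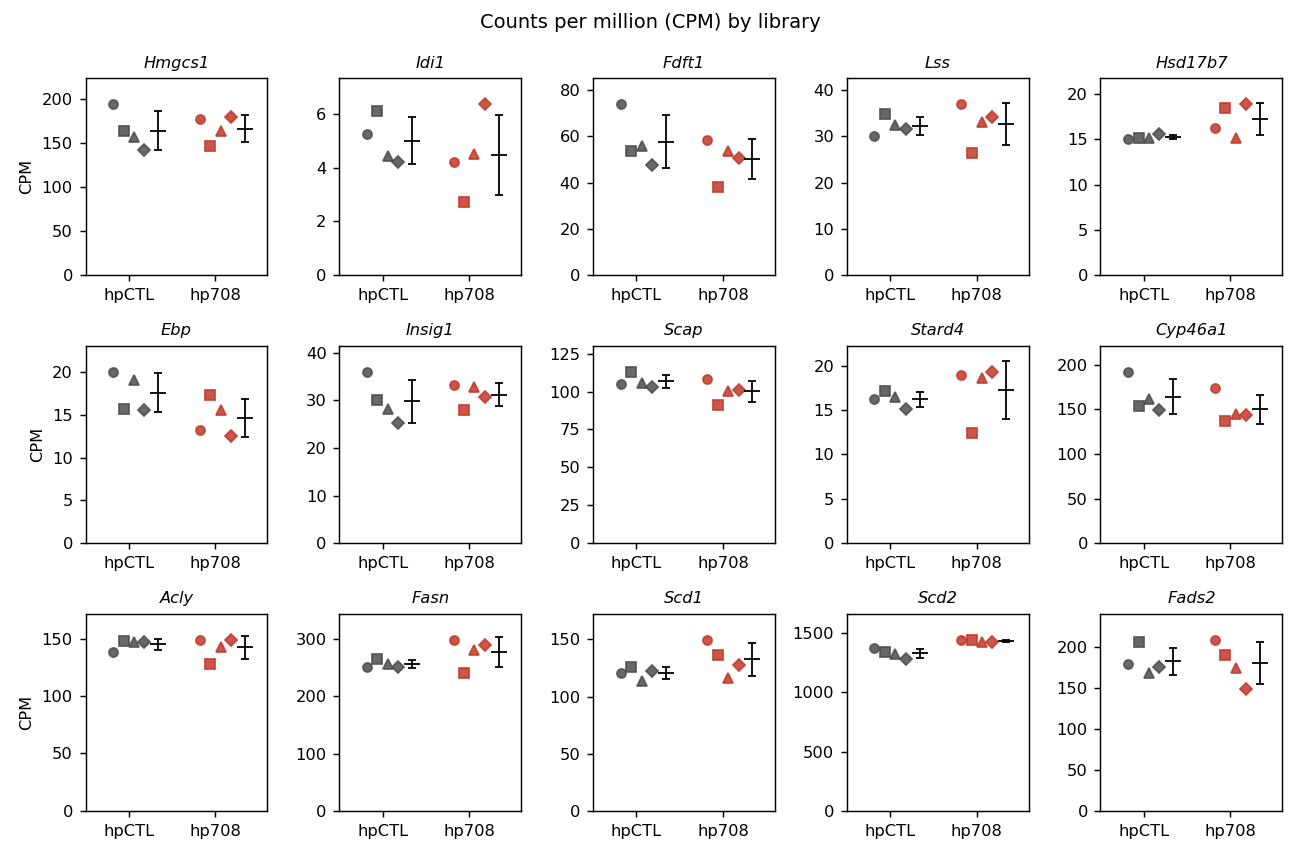
CPM in each library for 15 genes, from 0 upward, with 1 symbol per replicate number (circle 1, square 2, triangle 3, diamond 4; grey hpCTL, red hp708) and the mean with its SD beside each group. The groups overlap for every gene shown other than Scd2, whose 4 hp708 libraries (1423 to 1445 CPM) lie above the 4 hpCTL libraries (1281 to 1376 CPM).

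The 5 genes of SREBP control had no unadjusted p under 0.05, a median log2 fold change of 0.086 (0.041 with hp708 replicate 1 left out) and 1 negative value. Insig1, which retains SREBP in the endoplasmic reticulum and is itself an SREBP target, was the highest at 0.14 (SE 0.069, adjusted p = 0.701). It measured 36, 30, 28.2 and 25.2 CPM in hpCTL and 33.3, 27.9, 32.9 and 30.8 CPM in hp708. The hp708 values lay inside the hpCTL range, and the log2 fold change was 0.064 without surrogate variables and 0.081 with hp708 replicate 1 left out. Scap, the escort of SREBP to the Golgi, was the lowest at -0.062 (SE 0.054, adjusted p = 0.833). It measured 105, 113, 106 and 103 CPM in hpCTL and 108, 91.2, 100.5 and 101 CPM in hp708. One hp708 library lay among the controls and the other 3 below all of them, and with hp708 replicate 1 left out the value was -0.14 (adjusted p = 0.399).

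Of the transcription factors themselves, Srebf1 had means of 69 ± 4.87 CPM in hpCTL and 75.5 ± 8.5 CPM in hp708 and a log2 fold change of 0.086 (adjusted p = 0.712). Srebf2 had means of 175 ± 7.25 and 184 ± 23.4 CPM and a log2 fold change of 0.10 (adjusted p = 0.745); its hp708 libraries ran from 150.2 to 204 CPM, beyond both ends of the hpCTL range. Insig2, the second retention protein, was at 0.011 with a 95% confidence interval of -0.11 to 0.13.

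Among the 3 genes of sterol transport and turnover none had an unadjusted p under 0.05. Stard4, which carries cholesterol between membranes, measured 16.2, 17.1, 16.5 and 15.1 CPM in hpCTL and 18.9, 12.4, 18.6 and 19.3 CPM in hp708. In hp708, 3 libraries lay above every control and replicate 2 below every control, and the log2 fold change was 0.14 (SE 0.091, adjusted p = 0.76). With hp708 replicate 1 left out it was 0.011 (adjusted p = 0.983), and over the fits that left out 1 library it ran from 0.011 to 0.23. Cyp46a1, the cholesterol 24-hydroxylase of neurons, measured 192, 154, 162 and 149.6 CPM in hpCTL and 174, 137, 145 and 144 CPM in hp708. Replicates 2 to 4 of hp708 lay below all hpCTL libraries and replicate 1 above 3 of them. The log2 fold change was -0.057 (SE 0.066, adjusted p = 0.882), and without hp708 replicate 1 it was -0.14 (unadjusted p = 0.03, adjusted p = 0.34). Abca1, which exports cholesterol, had means of 66.7 ± 17 and 72.7 ± 6.03 CPM, with hpCTL replicate 1 at 44.1 CPM and the other libraries from 63.4 to 80.1 CPM.

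Fatty acid synthesis starts from citrate. Of its 4 genes, Fasn alone had an unadjusted p under 0.05, and the median log2 fold change was 0.051. With hp708 replicate 1 left out the median turned to -0.03, with 2 of the 4 negative and none at an unadjusted p under 0.05. Fasn (ENSMUSG00000025153, chr11:120696672-120715995, minus strand), the fatty acid synthase that assembles palmitate, measured 252, 266, 256 and 252 CPM in hpCTL and 299, 241, 281 and 289.8 CPM in hp708. In hp708, 3 libraries lay above every control and replicate 2 below every control. Its log2 fold change was 0.14 (SE 0.05, 95% confidence interval 0.026 to 0.26) with an unadjusted p of 0.0231 and an adjusted p of 0.593. Without surrogate variables it was 0.12 (adjusted p = 0.999), and without hp708 replicate 1, the library with the highest value, it was 0.065 (adjusted p = 0.717).

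Acly, which cuts citrate into acetyl-CoA, was the lowest of the 4 at -0.016 (SE 0.046, adjusted p = 0.956), and at -0.063 with hp708 replicate 1 left out. It measured 138, 148, 147 and 147 CPM in hpCTL and 149, 128, 143 and 149 CPM in hp708, and the groups overlapped. Acaca, the acetyl-CoA carboxylase, had means of 44.8 ± 1.3 and 45.5 ± 5.22 CPM with a log2 fold change of 0.06, and Elovl6, the elongase that extends palmitate, 62 ± 4.09 and 64.1 ± 3.71 CPM with 0.042.

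The desaturases gave the one gene of the 34 whose groups did not overlap. Scd2 (ENSMUSG00000025203, chr19:44281613-44295303, plus strand) measured 1376, 1342, 1324 and 1281 CPM in hpCTL and 1441, 1445, 1423 and 1428 CPM in hp708. All 4 hp708 libraries were above all 4 hpCTL libraries, as was so for 121 of all 17252 genes (0.701%), while 140 genes (0.812%) lay wholly below. The means were 1331 ± 39.4 and 1434 ± 10.5 CPM. Its log2 fold change was 0.11 (SE 0.04, 95% confidence interval 0.019 to 0.21), with an unadjusted p of 0.0252 and an adjusted p of 0.594. Without surrogate variables it was again 0.11 (95% confidence interval -0.026 to 0.24, adjusted p = 0.999), and without hp708 replicate 1 it was 0.12 (unadjusted p = 0.0281, adjusted p = 0.33). The value stayed between 0.09 and 0.13 in the 16 fits that left out 1 library each.

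Scd1, a close relative of Scd2 that lies beside it on the chromosome, had the highest log2 fold change of the 34 at 0.15 (SE 0.062, adjusted p = 0.653). It measured 121, 126, 114 and 122 CPM in hpCTL and 149.7, 136, 116 and 128 CPM in hp708. One hp708 library lay among the controls and the other 3 above them. With hp708 replicate 1, the highest library, left out, Scd1 was at 0.082 (adjusted p = 0.679) and Hsd17b7 became the highest of the 34 at 0.23. The fits that left out 1 library gave Scd1 values from 0.072 to 0.20. Fads2, the delta-6 desaturase of polyunsaturated fatty acids, was the lowest desaturase at 0.015 (SE 0.085, adjusted p = 0.978). It measured 179.7, 206, 168 and 176 CPM in hpCTL and 209, 190.3, 175 and 149 CPM in hp708, which held both the highest and the lowest library, and with hp708 replicate 1 left out it turned to -0.15 (unadjusted p = 0.0346, adjusted p = 0.358). Fads1, the delta-5 desaturase, had means of 192 ± 8.48 and 194 ± 14.2 CPM. Oligodendrocytes are rich in these transcripts, and the 10 oligodendrocyte markers averaged 7.24 to 7.66 on the log2 CPM scale in hpCTL and 7.26 to 8.17 in hp708 with none past an unadjusted p of 0.05. Their highest value was in hp708 replicate 2, where Scd2 was the highest of the 8 libraries (1445 CPM), Fasn the lowest of the 8 libraries and Scd1 the second highest. The part of oligodendrocytes in these values was not tested.

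Summed over the 8 genes of fatty acid synthesis and desaturation, the libraries gave 2368, 2391, 2302 and 2274 CPM in hpCTL and 2569, 2433, 2458 and 2425 CPM in hp708. The groups did not overlap, but Scd2 alone made up most of each sum. Of the 8 genes, 5 had their highest value in hp708 replicate 1, where 9.23% of all genes had theirs.

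The enzymes of sterol synthesis, taken as a sum, varied more between animals of a group than between the groups. Summed over the 18 enzymes from Acat2 to Dhcr7, the level was 844, 714, 696 and 637 CPM in hpCTL and 731, 628, 703 and 711 CPM in hp708. The group means of 723 ± 87.3 and 693 ± 44.9 CPM differed by less than the SD of either. In hpCTL replicate 1, 13 of the 18 enzymes had their highest value of the 8 libraries, where 25.5% of all genes had theirs, and in hp708 replicate 2, 8 of the 18 had their lowest, against 16.6% of all genes. Averaged over the 7 mevalonate genes, hpCTL replicate 1 lay 0.28 above and hp708 replicate 2 lay 0.22 below the genes' means on the log2 scale. The 3 squalene and lanosterol genes gave 0.24 and -0.35 in these libraries. Abca1 and Srebf1 had the opposite order in hpCTL replicate 1, with their lowest values (44.1 and 63.6 CPM), and Srebf1 was highest in hp708 replicate 2 (86.7 CPM). The same 2 libraries were the ends of the choroid plexus marker list (1.34 in hpCTL replicate 1 and 6.23 in hp708 replicate 2, mean log2 CPM over 7 markers, none of them at 0 in every library), and their summed level ran from 53.2 to 2060 CPM in hpCTL and from 106 to 4415 CPM in hp708. The libraries between them kept that order only in part. In hpCTL replicate 4 the choroid plexus mean was high (5.34) and the sum of sterol enzymes the second lowest (637 CPM). By contrast, hp708 replicate 1 had the second highest choroid plexus mean (5.79) and also the second highest sum of sterol enzymes (731 CPM). In hp708 replicate 2 the oligodendrocyte list was at its highest (8.17) and the neuron list at its lowest (9.39) of the 8 libraries. The part of these cell types in the levels of the sterol enzymes was not tested.

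**Figure D4:**
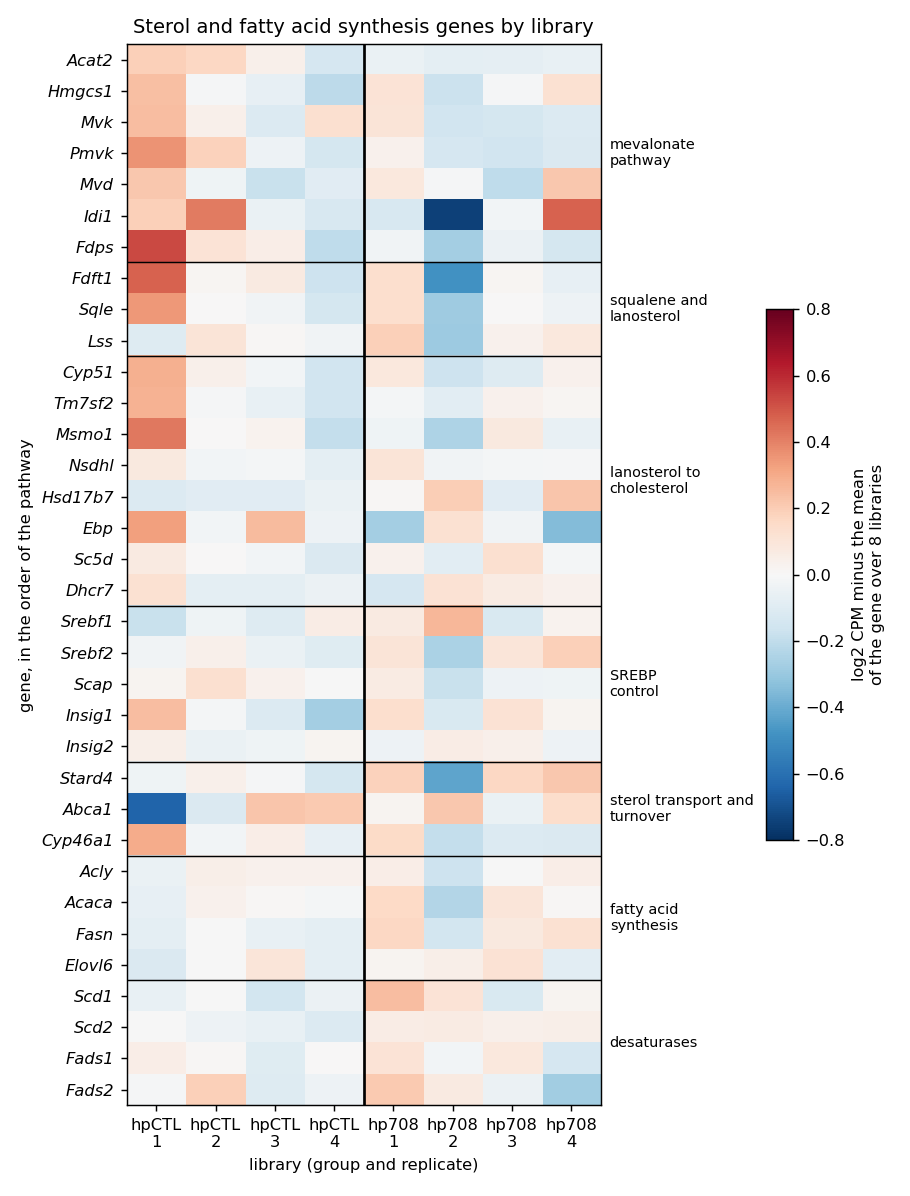
Each of the 34 genes (rows, in pathway order) in each of the 8 libraries (columns): log2 CPM minus the mean of the gene, red above and blue below it. Of the 18 enzymes of sterol synthesis (Acat2 to Dhcr7), 13 have their highest value in hpCTL replicate 1 and 8 their lowest in hp708 replicate 2.

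**Figure D5:**
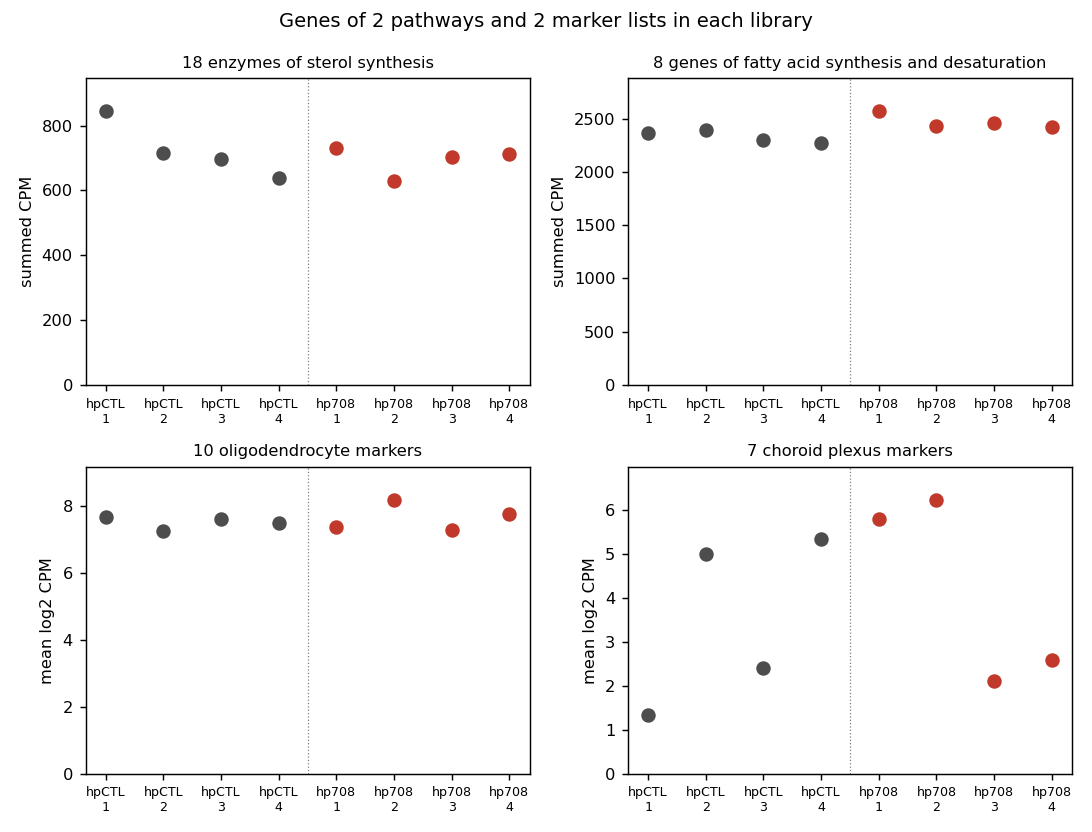
Summed CPM of the 18 enzymes of sterol synthesis and of the 8 genes of fatty acid synthesis and desaturation, and mean log2 CPM of 10 oligodendrocyte and 7 choroid plexus markers, 1 point per library (grey hpCTL, red hp708). The sterol enzymes are highest in hpCTL replicate 1 (844 CPM) and lowest in hp708 replicate 2 (628 CPM), which are the lowest and the highest library for the choroid plexus markers, while hp708 replicate 1 is second highest in both. The second lowest sum of sterol enzymes is in hpCTL replicate 4 (637 CPM), where the choroid plexus mean is 5.34.

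The genes were also split by whether their longest annotated 3′ untranslated region held a seed site. The 10 genes with a site of any of the 3 classes had a median log2 fold change of 0.051 with 3 negative, and the 24 without 0.02 with 9 negative. Over all tested genes the medians were 0.0014 with a site and -0.015 without. Without hp708 replicate 1 the medians were -0.037 and 0.011 for the 34 genes, and -0.0014 and -0.00061 over all genes. Mvk, with an 8mer, was at -0.092 (95% confidence interval -0.31 to 0.13) and Nsdhl at 0.05, as given above. These medians are descriptions and were not tested.

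A further 64 genes of lipid metabolism, in 5 lists, were all tested as well. None had an adjusted p under 0.05 in edgeR's quasi-likelihood test, 2 were higher and 1 lower at an unadjusted p under 0.05 (2.82% and 4.87% of all genes), and the median log2 fold change was -0.025 with 39 negative. Lrp8, an apolipoprotein E receptor that also binds Reelin in neurons, measured 65.9, 80.8, 87.7 and 79.8 CPM in hpCTL and 86.4, 75, 97 and 109.6 CPM in hp708. The groups overlapped in hp708 replicates 1 and 2, and the log2 fold change was 0.19 (SE 0.049, unadjusted p = 0.00501, adjusted p = 0.455), or 0.23 with no surrogate variables (unadjusted p = 0.0969). Elovl7, an elongase of long saturated fatty acids, was at 0.29 (SE 0.088, adjusted p = 0.528) with 10.5, 16, 12.5 and 18 CPM in hpCTL and 22.3, 37, 10.4 and 14.1 CPM in hp708. The groups overlapped, with the lowest and the highest library both in hp708, and with no surrogate variables the value of Elovl7 was 0.56 (unadjusted p = 0.147). Npc2, which hands cholesterol to Npc1 in the lysosome, was at -0.24 (SE 0.093, adjusted p = 0.624) with 89.6, 93.7, 101 and 115 CPM in hpCTL and 80.4, 119.6, 70 and 104 CPM in hp708; without hp708 replicate 1 it was 0.011, and with no surrogate variables -0.094 (unadjusted p = 0.567). By list, none of the 10 genes of SREBP processing and sterol sensing, the 4 oxysterol and bile acid type enzymes or the 8 of the isoprenoid branch had an unadjusted p under 0.05. The 16 of sterol transport, storage and efflux held Lrp8 and Npc2, and the 26 of fatty acid elongation, desaturation, activation and supply held Elovl7. The counts of this larger set also moved with single libraries, to 4 higher (5.44% of all genes) and 4 lower (6.72%) without hp708 replicate 1 and to 5 higher (2.75%) and 2 lower (5.71%) without hp708 replicate 4.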

How the data were processed

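RNA of whole hippocampus from 8 mice (hpCTL and hp708, n = 4 each) was analysed. The deposited table holds raw counts per gene, which the authors made, per the labels and their methods, by alignment with STAR (2.7.8a) to GRCm39 and counting with featureCounts (1.6.4); the settings for strand and multi-mapping are not given in the sources used here. Identifiers were named from GENCODE M39 (39641 of 40659 matched). Counts were filtered with filterByExpr, normalised with TMM and tested with edgeR (4.0.16) by the quasi-likelihood test with 3 surrogate variables from sva (3.50.0), and p-values were adjusted by Benjamini-Hochberg over all 17252 genes; the same fit without surrogate variables is given beside it. CPM carry no surrogate variables, so a fold change need not equal the ratio of group means. The fits were run on simulated counts with known changes, each gene drawn independently. Variation shared between genes was absent there, so that run cannot show how the surrogate variables act on these libraries. Depth was 22606824 to 28462428 counts per library. Alternatives were the likelihood ratio test, DESeq2 (1.42.0), its size factors, no filter, a replicate block and leaving out each library.

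Named with a value in every library were genes with an unadjusted p under 0.05 in either fit, genes whose groups did not overlap, and the highest and lowest log2 fold change of each pathway step; of the other lipid genes, those with an unadjusted p under 0.05. The genes, lists and tests were chosen with earlier results of these data known.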

Additional observations from a re-analysis of the deposited data

Results flagged for a closer look

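In 4 of 68 groups of 4 libraries, 1 library lay further from the other 3 than Dixon's test allows, where chance flags about 1 in 20 groups, or 3.4 of 68. Acly was lowest in hpCTL replicate 1 at 138 CPM, with the other controls at 147 to 148 CPM. Dhcr7 was highest in the same library at 34.9 CPM, with the other controls at 30.4 to 31 CPM. Stard4 was lowest in hp708 replicate 2 at 12.4 CPM, with the others of its group at 18.6 to 19.3 CPM. Nsdhl was highest in hp708 replicate 1 at 22.7 CPM, with the others at 20.7 to 21 CPM. None of these 4 genes had an unadjusted p under 0.05 in the test with 3 surrogate variables.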

How the results depend on the processing

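Over all genes, 1 had an adjusted p under 0.05, against 127 with the likelihood ratio test, 96 with DESeq2, 12 without the filter, 56 without hp708 replicate 1 and 0 without surrogate variables. None of the 34 genes had an adjusted p under 0.05 under any of the 23 alternatives, and their lowest adjusted p ran from 0.219 to 1. The count of the 34 at an unadjusted p under 0.05 (2 higher, 1 lower) became 0 and 0 without surrogate variables and 0 and 0 with the replicate number as a block and no surrogate variables; a block together with 3 surrogate variables leaves no residual degrees of freedom, and same-numbered libraries did not deviate together (correlations -0.04 to 0.02), so the numbers pair nothing. It became 1 and 0 with the likelihood ratio test, 0 lower with DESeq2 and with DESeq2 size factors, and 1 higher without the filter. With surrogate variables estimated from CPM it stayed at 2 higher (5.06% of all genes) and 1 lower (7.1%), but the genes changed. Higher there were 1 gene of SREBP control and 1 desaturase, and lower was Fdps, while Fasn and Ebp were not called. Over all genes the shares higher and lower were 0.614% and 0.962% under the block, 3.11% and 4.47% with DESeq2 size factors and 2.21% and 3.66% without the filter. Over the fits that left out 1 library it ran from 0 to 4 higher and from 0 to 5 lower. The further 64 lipid genes (2 higher, 1 lower) gave 0 and 0 with the block, 0 and 0 when surrogate variables were dropped, 1 higher without the filter, and 5 lower with surrogate variables estimated from CPM, an alternative chosen after seeing the data in which 7.1% of all genes were lower; leaving out 1 library gave 0 to 5 higher and 0 to 4 lower. Among the 34, 11 to 20 were negative when 1 library was left out, 19 without hpCTL replicate 4 and 20 without hp708 replicate 1, both without surrogate variables. The cause was not tested.

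The sign of the log2 fold change held in all 23 alternatives for 15 genes, Scd2, Fasn, Scd1, Ebp and Hsd17b7 among them. No value that turned had an adjusted p under 0.05, and Fads2 had an unadjusted p of 0.0346 where it turned to -0.15, without hp708 replicate 1. Sqle turned to -0.00014 without the filter, -0.095 without surrogate variables, -0.091 under the replicate block and -0.064 with surrogate variables from CPM. Tm7sf2 turned to -0.035 without surrogate variables, -0.027 under the replicate block and -0.0017 with surrogate variables from CPM. Fads2 turned to -0.013 without surrogate variables, -0.01 without the filter, -0.02 under the replicate block and -0.049 with surrogate variables from CPM, and Acly to 0.011 without the filter. Leaving out 1 library moved Hmgcs1 from -0.043 to 0.16, Mvd from -0.021 to 0.21, Idi1 from -0.39 to 0.0075, Sqle from -0.16 to 0.053, Lss from -0.09 to 0.11, Cyp51 from -0.14 to 0.062, Tm7sf2 from -0.09 to 0.064, Nsdhl from -0.0048 to 0.077, Sc5d from -0.0063 to 0.078, Dhcr7 from -0.0071 to 0.13, Insig1 from -0.0094 to 0.17, Insig2 from -0.013 to 0.041, Abca1 from -0.027 to 0.22, Cyp46a1 from -0.21 to 0.011, Acly from -0.063 to 0.021, Acaca from -0.066 to 0.10, Elovl6 from -0.022 to 0.09, Fads1 from -0.023 to 0.10 and Fads2 from -0.15 to 0.085. Of the 15 that kept their sign, values moved by over 1.5 times without surrogate variables for Mvk (-0.092 to -0.15), Fdps (-0.16 to -0.27), Fdft1 (-0.07 to -0.20), Msmo1 (-0.057 to -0.14) and Srebf1 (0.086 to 0.13). Leaving out 1 library gave -0.21 to -0.037 for Mvk, -0.23 to -0.0058 for Msmo1, 0.057 to 0.19 for Srebf1, -0.27 to -0.082 for Pmvk, -0.20 to -0.084 for Acat2, 0.028 to 0.16 for Srebf2, -0.14 to -0.024 for Scap, -0.38 to -0.18 for Ebp, 0.082 to 0.23 for Hsd17b7 and 0.065 to 0.18 for Fasn. Without surrogate variables Cyp46a1 was at -0.13, Abca1 at 0.12, Cyp51 at -0.08, Hmgcs1 at 0.021, Fads1 at 0.02, Lss at 0.018, Acaca at 0.022, Mvd at 0.044, Sc5d at 0.029, Nsdhl at 0.022, Insig1 at 0.064 and Acly at -0.027, each over 1.5 times from its value with them. Idi1, with 63 to 154 counts per library the gene with the fewest, had the largest SE (0.22) and the widest interval.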
